A study of Mus musculus with 27 samples.

Results

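The complement genes C1qa, C1qb, C1qc, C3, C4b and Serping1 were followed in whole brain RNA of 2 inbred mouse strains. They were found as all probe sets of the unlettered arrays whose platform annotation lists 1 of these 6 genes. This gave 7 of the 12488 probe sets (groups of probes for 1 transcript), standing for 5 of the 6 genes. C1qa, C1qc and Serping1 had 1 probe set each and C1qb had 2. Both sets found for C4b are listed for C4a and C4b together, so they are called C4a/C4b and cannot separate these near-identical genes. No set is listed for C3, which is not analysed here.

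The study asked how brain expression differs between the strains, as its title states. The groups used were 5 C57 males (written C57BL/2 in the labels) and 4 DBA/2J mice of unstated sex, all naive and 10 weeks old. The sample titles number 5 arrays for C57 and 4 for DBA, the same as the mice named, and each number was taken as 1 animal, which the labels do not state outright. Every n, SD and p rests on this, and would describe technical spread if arrays shared an animal. The labels name no other allele or agent. Median intensity was 160 to 198 per array, and neuron markers were bright on every array (summed intensity of 8 markers 45050 to 52660). Between any pair of the 9 arrays the correlation over probe sets was 0.946 to 0.970.

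Complement is a set of blood and tissue proteins that tag particles for removal. In its classical pathway the recognition molecule C1q, built from an A, a B and a C chain, binds a target and activates the proteases C1r and C1s. These cleave C4 and C2, which leads to deposition of C3. C1 inhibitor, encoded by Serping1, shuts off C1r and C1s. In brain, microglia are the main source of C1q, and C1q, C4 and C3 mark synapses for removal by microglia during development.

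C1qb and C1qc, which encode the B and C chains, were lower in DBA brain, C1qb at the brighter of its 2 sets. C4a/C4b was higher, and C1qa and Serping1 did not pass the threshold. Over 18 other settings, which include leaving out each animal, the call was lost in 10 for C1qc, 13 for C4a/C4b and 1 for C1qb. Of the 6 complement sets bright enough to test, 3 passed an adjusted p under 0.05 (2 lower and 1 higher in DBA). Over all 9316 sets tested, 2.5% passed, 1.61% lower and 0.891% higher. The strains did not overlap at the same 3 complement sets, against 6.45% of all tested sets (3.61% with DBA below and 2.84% with DBA above). These 3 were also the only ones of the 6 with an unadjusted p under 0.05, against 12.2% of all tested sets. The median log2 difference, DBA minus C57, was -0.37 over the 6 complement sets, from -0.85 to 0.61, against 0.01 over all tested sets.

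The genes of the 3 C1q chains lie side by side on chromosome 4 in the order C1qb, C1qc, C1qa, with no other gene of the RefSeq annotation starting between them. Of the 6 genes looked up, 3 had a promoter in the RefSeq promoter table (build GRCm38.p6), C1qb, C1qc and C3. The promoters of the 2 C1q genes that fell are shown because these genes are neighbours that were lower together. Each runs from 250 bases before to 50 bases after the start of the gene, 5′ to 3′ on the minus strand, at chr4:136886151-136886450 for C1qb and chr4:136892865-136893164 for C1qc. Capitals mark the motif GAGGAA on either strand, the core bound by PU.1, a transcription factor of microglia and macrophages:
C1qb: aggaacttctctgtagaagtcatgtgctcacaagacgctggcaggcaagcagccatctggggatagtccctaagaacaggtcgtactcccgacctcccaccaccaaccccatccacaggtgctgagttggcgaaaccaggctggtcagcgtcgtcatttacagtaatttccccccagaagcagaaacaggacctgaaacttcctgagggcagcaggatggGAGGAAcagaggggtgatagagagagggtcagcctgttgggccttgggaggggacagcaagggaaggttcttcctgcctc
C1qc: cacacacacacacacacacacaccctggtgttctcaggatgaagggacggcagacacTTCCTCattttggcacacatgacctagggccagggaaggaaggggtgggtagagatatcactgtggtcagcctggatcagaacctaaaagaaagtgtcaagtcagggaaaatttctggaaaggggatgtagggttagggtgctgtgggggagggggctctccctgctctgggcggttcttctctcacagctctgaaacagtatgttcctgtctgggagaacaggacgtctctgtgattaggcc

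The C1qb window held 1 match on the strand of the gene, starting at base -30 from the start of the gene, and the C1qc window held 1 on the other strand, at base -193. The same 6 letters occur on either strand in 28.3% of all 32851 promoters of the table, so a match is common. The MAF half-site TGCTGAC (in 4.67% of promoters) and the composite motif of ETS and IRF factors (in 2.72%) had no match in either window. These matches are a description of the sequence and were not set against binding.

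C1qb, the B chain, fell in DBA at its bright probe set. The intensity was 898, 1078, 936, 1123 and 1084 in C57 animals 1 to 5, and 583, 659, 514 and 512 in DBA animals 1 to 4. The highest DBA animal lay below the lowest C57 animal. The mean was 1024 ± 99.6 (SD, n = 5) in C57 and 567 ± 69.7 (SD, n = 4) in DBA, a 1.81-fold lower geometric mean in DBA (log2 difference -0.85 ± 0.12, 95% interval -1.12 to -0.59, adjusted p = 0.00343). The adjusted p stayed between 0.00599 and 0.0133 with any 1 animal left out. The log2 differences of 1.62% of the tested sets were lower still.

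The other C1qb set was dimmer and gave no call. Its intensity was 158, 85.2, 156.5, 112 and 78.3 in C57 animals 1 to 5 and 71.7, 84.8, 45.5 and 119 in DBA animals 1 to 4. The strains overlapped, with C57 animals 2, 4 and 5 inside the DBA range. The log2 difference was -0.58 with a 95% interval of -1.26 to 0.11, which holds both 0 and the value of the bright set. Its SD within the strains was 0.52 on the log2 scale against 0.16 at the bright set, with a median of 0.24 over all tested sets.

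C1qc, the C chain, fell in DBA at its only set. The intensity was 991, 1195, 989.9, 1274.5 and 1274 in C57 animals 1 to 5 and 681, 811, 617 and 805 in DBA animals 1 to 4. The strains did not overlap, with C57 animals 1 and 3 nearest to the DBA range. C1qc was 1.57-fold lower in DBA with a 95% interval of 1.28 to 1.93 (log2 difference -0.65 ± 0.13, adjusted p = 0.0318). Leaving out C57 animal 2, 4 or 5, or any of DBA animals 1 to 3, ended the call (adjusted p from 0.0525 to 0.104), while the log2 difference stayed between -0.71 and -0.58. It was also lost with median centring of the arrays (adjusted p = 0.107) and without the filter on dim sets (adjusted p = 0.0656).

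C1qa, the A chain, was the brightest of the 6 tested complement sets and did not pass. The intensity was 1091, 1334, 1196, 1312 and 1269.8 in C57 animals 1 to 5 and 1017, 1189, 1298 and 976 in DBA animals 1 to 4. DBA animals 2 and 3 lay inside the C57 range, and DBA animals 1 and 4 lay below it. The log2 difference was -0.15 ± 0.12 (adjusted p = 0.696), and its 95% interval of -0.42 to 0.11 leaves room for DBA levels from 1.34-fold lower to 1.08-fold higher. Missing the threshold does not show that C1qa was equal in the strains.

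**Figure D1:**
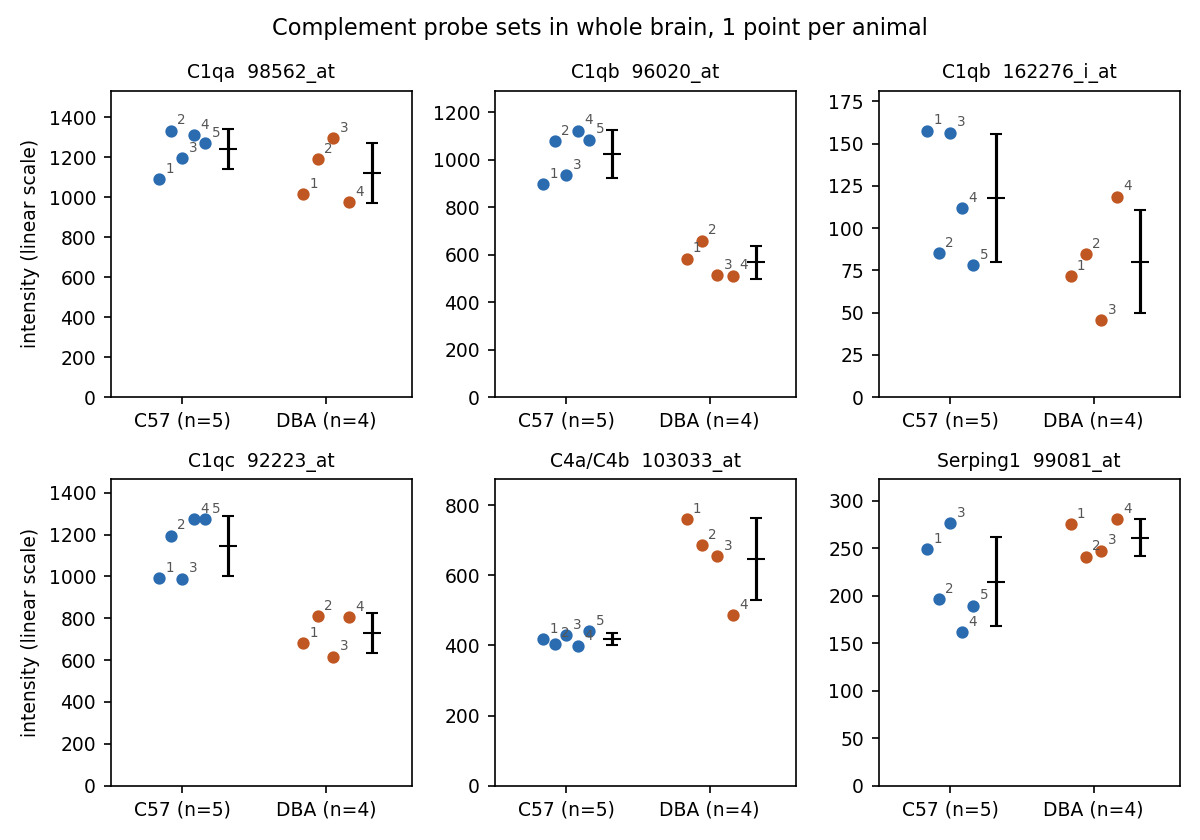
Intensity on a linear axis of the 6 tested complement probe sets in 5 C57 and 4 DBA animals, each point 1 animal with its number and bars the mean ± SD. C1qb (bright set) and C1qc lie lower in every DBA animal, C4a/C4b lies higher in every DBA animal, and the strains overlap at C1qa, Serping1 and the dim C1qb set.

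Whether the strain difference was unlike between the probe sets of the chains was tested on the log2 ratio of 2 chains on the same array. A ratio within an array is not moved by the scaling of that array. The ratio of C1qb to C1qa was -0.28, -0.31, -0.35, -0.23 and -0.23 in C57 animals 1 to 5 and -0.80, -0.85, -1.34 and -0.93 in DBA animals 1 to 4. All DBA animals lay below all C57 animals, and DBA animal 3, with the highest C1qa of its strain and a low C1qb, lay farthest down. C1qb was thus lower relative to C1qa in DBA by a log2 difference of -0.70 ± 0.11 (exact 2-sided permutation test over the 9 animals, p = 0.00794, the smallest these 126 splits can give, adjusted p = 0.0119 over 3 pairs).

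C1qc was lower relative to C1qa in DBA as well. The ratio ran from -0.27 to 0.0045 in C57 and from -1.07 to -0.28 in DBA, with DBA animal 4 (-0.28) close to C57 animal 3 (-0.27). The difference was -0.50 ± 0.16 (exact permutation p = 0.00794, adjusted p = 0.0119). Without DBA animal 3 it was -0.35. The ratio of C1qb to C1qc overlapped between the strains and differed by -0.20 ± 0.09 (exact permutation p = 0.0159, adjusted p = 0.0159). That last call was lost without any 1 of C57 animals 1 to 4 (adjusted p = 0.0571) or without DBA animal 4 (-0.10, adjusted p = 0.0536). Without any 1 of C57 animals 1 to 4 the difference itself stayed between -0.21 and -0.18. With an animal left out fewer splits remain, so the permutation p moves in coarser steps. The tests of the 3 ratios were chosen after the values of the chains had been seen, and they compare probe sets, 1 for each chain. They cannot tell a difference in RNA from a strain difference in how the probes bind, which was not tested.

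**Figure D2:**
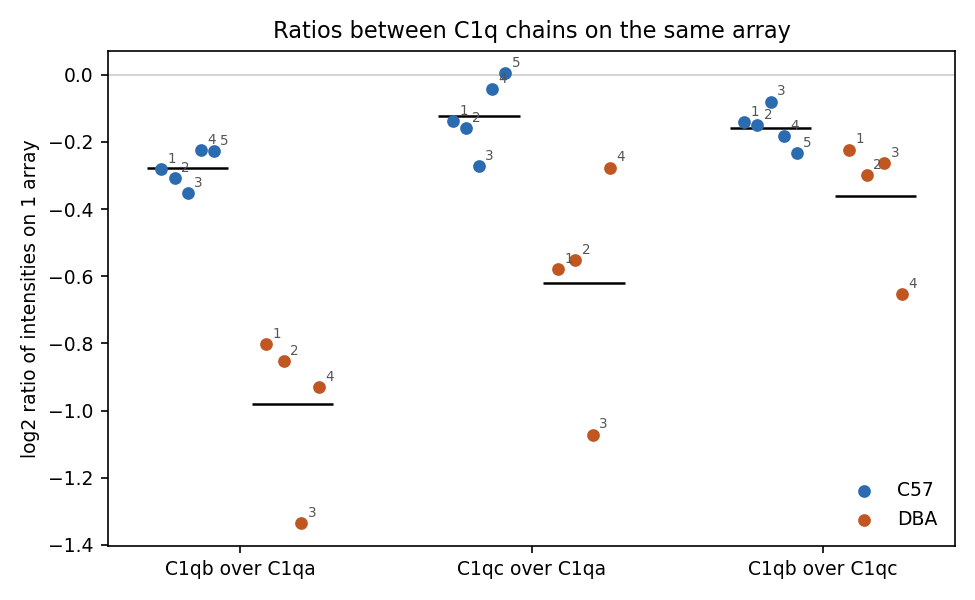
The log2 ratio of intensities of 2 C1q chains on the same array, each point 1 animal with its number and bars the mean of the strain. The ratios of C1qb and C1qc to C1qa are lower in every DBA animal than in every C57 animal, and the ratio of C1qb to C1qc overlaps.

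The bright set listed for C4a and C4b was higher in DBA. It cannot show which of these genes was higher, and the C57 mice were males while the sex of the DBA mice is unstated. The intensity was 417, 405, 429.8, 398 and 441 in C57 animals 1 to 5 and 760.3, 686, 655.5 and 486 in DBA animals 1 to 4. The C57 animals lay close together and every DBA animal lay above them, DBA animal 4 by the least. The level was 1.53-fold higher in DBA with a 95% interval of 1.24 to 1.88 (log2 difference 0.61 ± 0.13, adjusted p = 0.0450). The SD on the log2 scale was 0.06 in C57 and 0.28 in DBA.

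This call was close to the threshold. Leaving out any 1 of the C57 animals, or any of DBA animals 1 to 3, ended it (adjusted p from 0.0838 to 0.142), and with DBA animal 4 left out the difference was 0.74 (adjusted p = 0.00601). It was also lost with quantile normalization (adjusted p = 0.0516), median centring (adjusted p = 0.135) and no filter on dim sets (adjusted p = 0.0872). With 1 animal left out the difference stayed between 0.53 and 0.74. The other C4a/C4b set lay below the brightness limit of 35.4 on all 9 arrays, with 1.6 to 16.3 in C57 and 0.7 to 7.4 in DBA, and was not tested.

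Serping1, the gene of C1 inhibitor, did not pass at its only set. The intensity was 249, 196, 276, 162 and 189.7 in C57 animals 1 to 5 and 275, 241, 248 and 281 in DBA animals 1 to 4. C57 animals 1 and 3 lay inside the DBA range and the other C57 animals lay below it. The log2 difference was 0.31 ± 0.16 with a 95% interval of -0.05 to 0.67 (adjusted p = 0.514).

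Of 47 other complement genes, 31 had a named probe set and 21 were bright enough to test. By the brightest set of each gene, 1 passed, higher in DBA, and 1 had an unadjusted p under 0.05. Of all tested sets, 2.5% and 12.2% did so. The median log2 difference was 0.04, with 11 genes above 0 and 10 below. The gene that passed was Cd59b, which encodes a membrane protein that blocks the last step of complement, the assembly of the lytic pore. Its intensity was 185, 179, 149.8, 159.9 and 161 in C57 animals 1 to 5 and 353, 304, 322 and 284 in DBA animals 1 to 4.

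The strains did not overlap at Cd59b, and the level was 1.89-fold higher in DBA (log2 difference 0.92 ± 0.11, 95% interval 0.68 to 1.16, adjusted p = 0.00123). The adjusted p was at most 0.00618 with any 1 animal left out. The paralog Cd59a had its own set and did not pass, and how far RNA of one copy binds the probes of the other was not tested. Cd59a, Cd59b and Cr1l were the tested membrane inhibitors, and Cr1l did not pass either.

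Among the activating proteins, none of the tested genes passed. C1ra, the protease C1r, had 93.6 ± 35.3 (SD, n = 5) in C57 and 139 ± 31.9 (SD, n = 4) in DBA at its brightest set (log2 difference 0.66 ± 0.33, adjusted p = 0.478), while its other set differed by -0.10 ± 0.19. In the lectin pathway, which starts from sugars in place of C1q, Fcna (a ficolin) differed by 0.81 ± 0.48 and the protease gene Masp2 by -0.64 ± 0.43, both with wide spread at low intensity. The 3 tested central components, C2, Cfb and Cfp, ranged from -0.13 to 0.20. The terminal components C8g and C9 had -0.17 and 0.29.

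The inhibitors in body fluids, Clu and Vtn, ranged from -0.10 to 0.05. Of the receptors, 8 were tested and 0 passed, with log2 differences from -0.37 to 0.15. The lowest was that of C3ar1, the receptor of the C3a fragment (-0.37 ± 0.20, adjusted p = 0.535). The others were C5ar1, the integrin subunits Itgam, Itgax and Itgb2 of complement receptors for C3 fragments, Cd93, C1qbp and Lrp1. The probe sets of Masp1, Mbl1, Mbl2, Hc, Cfi, C4bp, Cd55, Cd46, Cr2 and Calr lay below the brightness limit and were not tested.

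**Figure D3:**
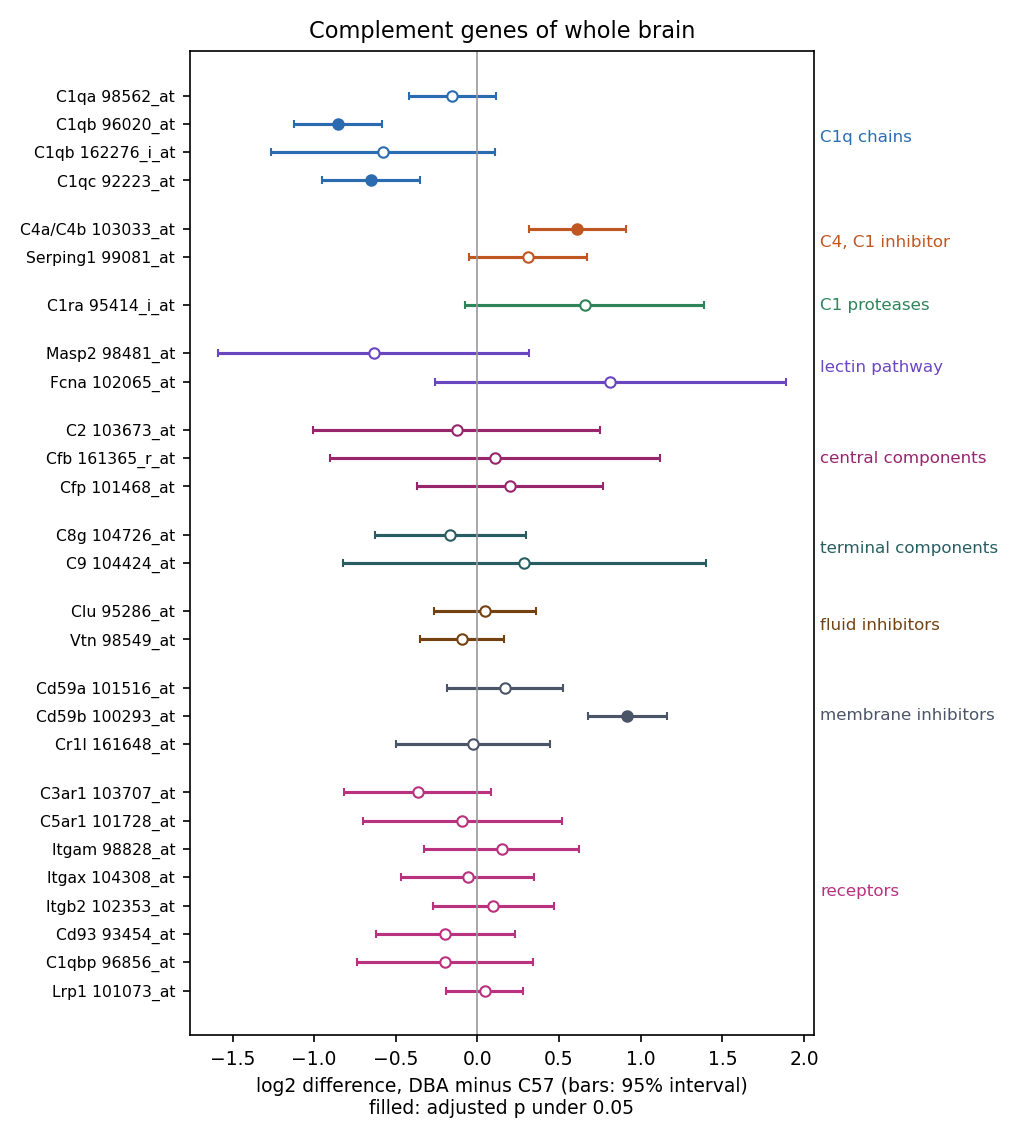
Log2 difference, DBA minus C57, with 95% interval for the complement sets followed here and the brightest tested set of the other complement genes, grouped by role, with filled points past an adjusted p of 0.05. C1qb and C1qc lie below 0, C4a/C4b and Cd59b above 0, and the intervals of all unfilled points include 0.

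Because C1q is made by microglia, other genes of microglia were read beside it. Of 28 microglia markers 18 had a named set and 16 were tested. Of these 16, 0 passed by limma and 4 had an unadjusted p under 0.05, against 12.2% of all tested sets. The median log2 difference of the 16 was 0.05, with 9 above 0 and 7 below. The summed intensity of the 18 markers was 19618 to 22801 in C57 and 20902 to 23387 in DBA, and the strains overlapped. Most of this sum was Cst3, at 13453 to 16129 in C57 and 14395 to 16599 in DBA, so it says little about the other markers. Fcer1g and Ptprc lay below the brightness limit. In bulk tissue, fewer cells of a type and less RNA per cell cannot be told apart.

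The markers with the smallest p went both ways. Lgmn, the lysosomal protease legumain, was 1078 ± 93.6 (SD, n = 5) in C57 and 763 ± 121 (SD, n = 4) in DBA without overlap (-0.51 ± 0.13, adjusted p = 0.0886, or 0.0397 with the dimmest 50% of sets left out and 0.0342 with a variance trend). Ly86, a partner of a toll-like receptor homologue, differed by 0.34 ± 0.10 (adjusted p = 0.170), Ctss, cathepsin S, by 0.32 ± 0.12 and the transcription factor gene Irf8 by 0.46 ± 0.21. The adjusted p of Ctss was 0.290 and that of Irf8 was 0.406.

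The mean log2 intensity of the 16 tested markers was 8.20 to 8.33 in C57 and 8.19 to 8.34 in DBA. Measured against this mean on the same array, C1qb was at 1.48 to 1.94 in C57 and 0.67 to 1.04 in DBA on the log2 scale, and C1qc at 1.63 to 2.12 and 0.93 to 1.46, both without overlap. C1qa was at 1.76 to 2.16 in C57 and 1.67 to 2.00 in DBA, with overlap. No test was made of these scores.

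**Figure D4:**
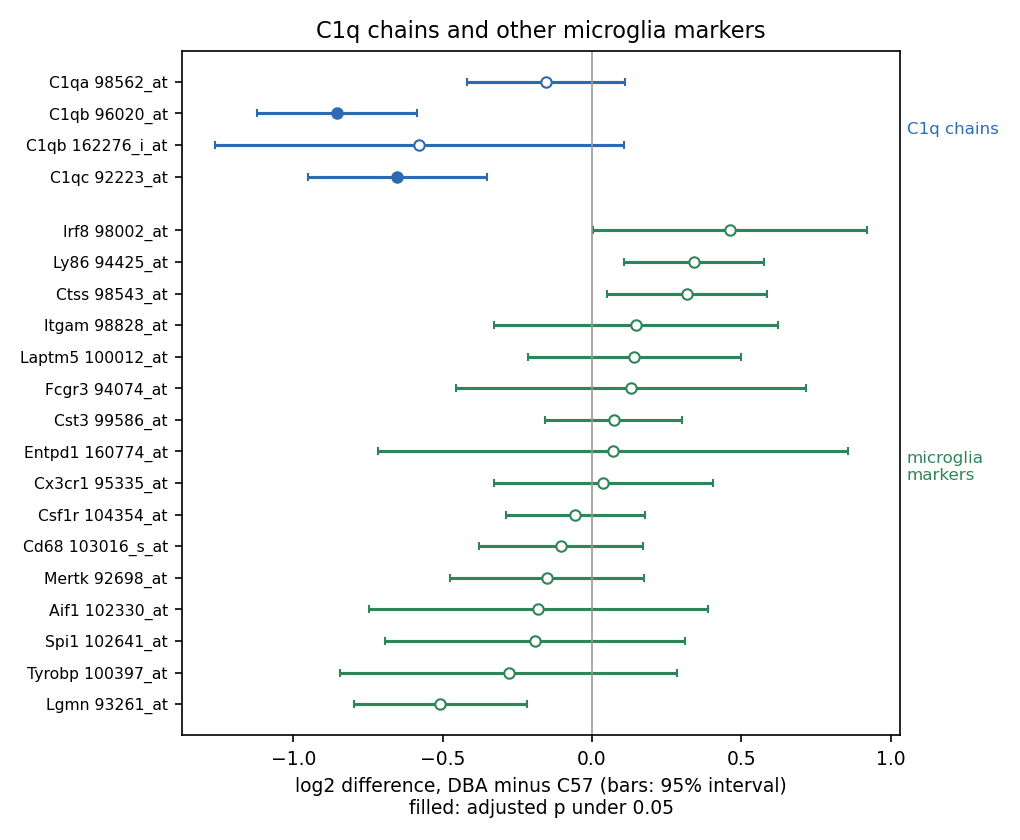
Log2 difference, DBA minus C57, with 95% interval for the 4 C1q probe sets and the brightest tested set of 16 other microglia markers, filled where the adjusted p was under 0.05. C1qb (bright set) and C1qc lie below all 16 markers, which run from -0.51 (Lgmn) to 0.46 (Irf8), and C1qa lies among them.

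Genes near the C1q locus on chromosome 4 were read the same way. Among the 20 RefSeq genes on each side, 10 had a named set and 8 were tested. None of the 8 passed by limma, and 0 had an unadjusted p under 0.05, against 12.2% of all tested sets. Their log2 differences ran from -0.26 to 0.31. The nearest measured gene, Epha8, an ephrin receptor next to C1qa, differed by 0.31 ± 0.14 (adjusted p = 0.412). Wnt4, a secreted signal, differed by 0.27 ± 0.16, Cdc42, a small GTPase, by -0.15 ± 0.12, and Id3, an inhibitor of transcription factors, by -0.26 ± 0.15.

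C4 and Serping1 also belong to the genes that reactive astrocytes and interferon raise. Of 14 tested reactive astrocyte genes, 1 passed, Serpina3n, a secreted protease inhibitor. Its intensity was 458, 414, 597, 539 and 399.5 in C57 animals 1 to 5 and 926, 1015, 1176 and 911 in DBA animals 1 to 4, without overlap, and it was 2.11-fold higher in DBA (1.07 ± 0.15, adjusted p = 0.00303). The median of the list was -0.06, with 8 genes below 0. Of 15 tested interferon-response genes, 1 passed, the GTPase gene Gbp2 (1.72-fold higher in DBA, 0.78 ± 0.14, adjusted p = 0.0159). The list median was -0.13, with 10 genes below 0 and 5 above. At an unadjusted p under 0.05 there were 5, against 12.2% of all tested sets. Besides Gbp2 these were Irgm1 (-0.41 ± 0.12, without overlap) and Iigp1 (-0.96 ± 0.34), lower in DBA, and Ifit3 (0.42 ± 0.14) and Tap1 (0.37 ± 0.15), higher. The Gbp2 call was lost without DBA animal 1 (adjusted p = 0.0607) or 2 (adjusted p = 0.0550) and with a variance trend (adjusted p = 0.101).

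Markers of other cell types gave 0 calls by limma at the brightest set of each gene, in 8 astrocyte, 6 oligodendrocyte, 8 neuron, 11 vessel, 3 choroid plexus, 4 border macrophage and monocyte, and 5 granulocyte and erythrocyte genes. At an unadjusted p under 0.05 there were 2, 3, 2, 2, 1, 0 and 1 in that order, against 12.2% of all tested sets. The granulocyte gene S100a8 was lower in DBA without overlap (-1.01 ± 0.23, adjusted p = 0.0506). S100a9 and Ngp, too dim to test, were also lower without overlap, while Camp and Mpo overlapped. All 6 tested oligodendrocyte markers were below 0 (median -0.47), with a summed intensity of 19493 to 28060 in C57 and 19220 to 22951 in DBA. The dimmest of the Mobp sets, still bright with means of 2754 in C57 and 1541 in DBA, was called lower in DBA (-0.84 ± 0.12, adjusted p = 0.00416). The other Mobp sets differed by -0.11, -0.22 and -0.35 and did not pass. Choroid plexus markers summed to 1109 to 3515 in C57 and 3443 to 4608 in DBA. As a sign of RNA quality, the 3′ over 5′ log2 ratio of the Gapdh controls was -0.29 to -0.19 in C57 and -0.44 to -0.32 in DBA (exact permutation p = 0.0159, adjusted p = 0.0635 over 4 controls), and the other 3 controls overlapped. The part of these cell type and RNA quality values in the complement differences was not tested.

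With the mean of each strain removed, the members were compared over the 9 animals, in 10 pairs among 1 set for each gene. C1qb and C1qc had the largest positive r (Pearson r = 0.70, permutation p = 0.0514, Spearman rho = 0.73, permutation p = 0.0465), with r = 0.92 without the 2 animals farthest from the median of C1qb. C1qb and Serping1 had the lowest r (r = -0.71, permutation p = 0.0274, rho = -0.82, permutation p = 0.00799), with r = -0.63 without the 2 farthest. The other chains were also negative against Serping1, C1qa at r = -0.64 (permutation p = 0.0226) and C1qc at r = -0.65 (permutation p = 0.0809). C1qa and C1qb had r = 0.44 (permutation p = 0.283), or -0.02 without the 2 animals farthest from the median of C1qa, and so rested on those animals. After adjustment over the 10 pairs the smallest p was 0.137 for r and 0.0799 for rho by permutation, so no pair passed. Values of 1 array share its scaling.

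The genes most like C1q in their variation among animals were taken from the mean of the 4 tested C1q sets. The largest r over 9 arrays were those of Capzb (0.96), Gtf2ird2, Tpra1, Pak2, Tubb4b, Uhrf1bp1, Clip3 and Rnf26 (0.92), out of 6860 genes. That mean followed the dim C1qb set (r = 0.70) more than the bright one (r = 0.38) or C1qa (r = -0.32). With the brightest set of each chain, a choice made after seeing this, the leading genes were Inpp5a (0.98), Nup85, Pafah1b2, Prpf19, Ndrg2, Ndufb6, Slc46a1 and Selenof (0.94), and 0 of the 8 were shared. Both lists were picked as the largest of 6860 r over only 9 arrays. Whether such r exceed what picking alone gives was not tested. The median r of the 16 microglia markers was -0.25 by the first profile and -0.14 by the second, against 0.04 and -0.18 over all tested sets. Single markers were spread widely to both sides of these medians. They ran from -0.51 (Itgam) to 0.87 (Spi1) by the first profile and from -0.73 (Mertk) to 0.88 (Cst3) by the second.

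**Figure D5:**
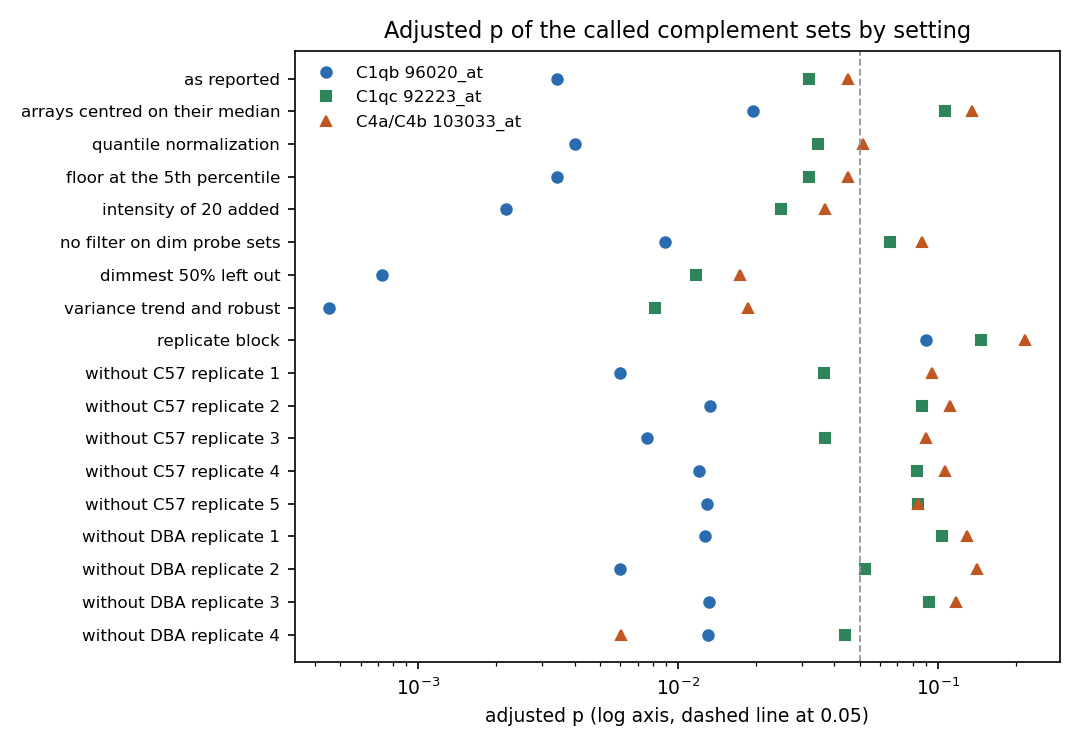
Adjusted p on a log axis of the 3 complement sets that passed, for the values as reported and each other setting, with a dashed line at 0.05. C1qb stays left of the line in every setting but the replicate block, while C1qc and C4a/C4b cross it in several.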

How the data were processed

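RNA was measured on the 9 unlettered arrays (5 C57, 4 DBA, each number taken as 1 animal), with 5 ug of total RNA as the labelled input. The table the authors deposited holds intensities on a linear scale, while neither the scanner software nor the way probes were summed into sets is given in the sources used here. The deposited intensities, without the top and bottom 2%, average 500.3 on every array, so each had been scaled to 1 target. The 18 lettered arrays were not used here. Probe-level values were not used, so single probes of a set cannot be read, and precision is limited by the number of arrays.

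A platform annotation named 10855 probe sets by 1 symbol and 396 by several, leaving 1237 unnamed. For 10839 sets the symbol was taken from RefSeq GRCm38.p6 through the gene identifier, whether or not it changed. After 66 array controls were left out, values under an intensity of 1.70 (the 1st percentile of positive values) were raised to it and log2 was taken. Array medians spanned 0.31 log2, under the 0.5 set for normalizing further. The dimmest 25% of sets (mean under 35.4) were left out. Strains were compared with limma 3.58.1 (lmFit, then eBayes) under R 4.3.3, 2-sided, over all 9316 remaining sets with Benjamini-Hochberg adjustment. Adjusted p-values are from this fit unless a permutation test is named, ± beside a log2 difference is its standard error, and folds are ratios of geometric means. The fit was tested on simulated data. Figures used matplotlib 3.10.9.

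The members, lists and tests were chosen with earlier results of these data known. Named were all member sets, called genes of each list, up to 4 more by smallest p, and the 8 genes most like C1q. Other complement genes were added to complete each role. List counts use the brightest set of a gene. Alternatives were other scaling, floors, filters, variance model, threshold, the replicate number as a block, and leaving out each animal. The labels do not say whether animals of one number in both strains were paired or shared a batch. Their deviations correlated at -0.17 to -0.01, so no pairing was used in the reported fit.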

Additional observations from a re-analysis of the deposited data

Results flagged for a closer look

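In 5 of 54 strain groups examined, over 27 probe sets, 1 animal stood apart from the others of its strain by Dixon's test on log2 values, which chance gives in about 1 of 20 groups. At the dim C4a/C4b set, below the brightness limit, DBA animal 4 was at 7.4 against 0.7 to 1.7 in the other DBA animals. These are the deposited values: the test ran after values under 1.70 were raised to it, which made the 3 others equal, so this entry rests on that floor. At Wnt4 DBA animal 4 was at 136.7 against 185.6 to 192.7. At Cdc42 C57 animal 3 was at 1341.4 against 1650.7 to 1757.4. At C1qtnf12 DBA animal 3 was at 261.3 against 145.3 to 156.3, and at a dim C1qtnf1 set C57 animal 5 was at 22.2 against 56.3 to 71.8. No explanation of these values was tested.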

How the results depend on the processing

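Over 18 other settings the call was lost in 13 for C4a/C4b, in 10 for C1qc and in 1, the replicate block, for C1qb (bright set). The count of complement sets past the threshold, 3 as reported, was 1 with arrays centred on their median, 1 without a filter on dim sets, 1 at a threshold of 0.01 and 0 with the replicate block, where limma gave an adjusted p of 0.0899 for C1qb (bright set), 0.147 for C1qc and 0.217 for C4a/C4b, and 3 of the 6 had an unadjusted p under 0.05. The block also ended the calls of Cd59b (adjusted p = 0.0564), Serpina3n (0.0515), the dimmest Mobp set (0.0869) and Gbp2 (0.128). With 1 animal left out the count of complement sets ranged from 1 to 3. Over all probe sets, 233 were called as reported, 150 at a threshold of 0.01 and 73 with the replicate block, and 184 to 228 with 1 animal left out. C57 animal 5 has no DBA partner and adds nothing to the strain difference under the block, whose log2 differences equal those without that animal (C1qb -0.83, C1qc -0.61, C4a/C4b 0.63). The block therefore joins the loss of 1 animal with added terms. Without that animal and with no block, 196 sets and 1 complement set were called. The causes of the other changes were not tested. The difference of C1qb against C1qc ran from -0.25 to -0.10 with 1 animal left out. Dim sets rest on signal near background, which limits what they can show.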

Other observations

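Proteins outside complement share the globular domain of C1q, among them the cerebellins that organize synapses. Of 14 such genes 6 had a named probe set and 4 were tested by their brightest set. None passed over all probe sets by limma, and 3 had an unadjusted p under 0.05, against 12.2% of all tested sets. Cbln1, secreted by cerebellar granule cells, had 1909 ± 165 (SD, n = 5) in C57 and 2512 ± 162 (SD, n = 4) in DBA without overlap (log2 difference 0.40 ± 0.10, adjusted p = 0.0928, or 0.0477 with the dimmest 50% of sets left out and 0.0274 with a variance trend). C1ql1, a synaptic organizer made by climbing fibre neurons, had 58.4 ± 26.3 (SD, n = 5) and 130 ± 34.9 (SD, n = 4), also without overlap (1.26 ± 0.35, adjusted p = 0.133). C1qtnf12 differed by -0.57 ± 0.17 (adjusted p = 0.160), or by -0.77 without DBA animal 3 (adjusted p = 0.00526). A dim C1qtnf1 set differed by -0.51 ± 0.32, or by -0.82 without C57 animal 5 (adjusted p = 0.0181), while the brightest C1qtnf1 set differed by 0.21 ± 0.27.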
